A study of Mus musculus with 3 samples.

Results

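The proteasome degrades proteins into peptides, and its subunits are described here gene by gene in 3 single-cell RNA libraries of sorted mouse myeloid cells. Members were taken by symbol, as every gene whose symbol starts with Psma, Psmb, Psmc, Psmd or Psme followed by a digit. A member also needed at least 20 unique molecular identifiers (UMIs, tags that each mark a single captured RNA molecule) in the kept cells of a library. Of the 27998 genes in the count tables, 45 had such a symbol, 44 of them reached 20 UMIs in at least 1 library and 43 did so in all 3. Psmb11, a catalytic subunit of the thymus, failed with 3 UMIs in blood and 2 in either tumor library. Psma8, an alpha subunit of male germ cells, passed in the control tumor only, with 24 UMIs there and 13 in each of the other libraries. The symbol rule also took in Psmc3ip, a meiotic recombination factor that is not a proteasome subunit, and Psme2b, a near copy of Psme2.

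The 20S core of the proteasome is a barrel of alpha and beta subunits, and Psmb5, Psmb6 and Psmb7 carry its cutting sites in most cells. Interferon-gamma induces replacement subunits, with Psmb8 taking the place of Psmb5, Psmb9 that of Psmb6 and Psmb10 that of Psmb7, and the particle that results is called the immunoproteasome. Its peptides are favoured for loading onto MHC class I, and antigen-presenting cells often carry it without stimulation. Psme1 and Psme2 form PA28, an interferon-inducible cap that opens the core without ubiquitin, whereas the 19S cap, made of the Psmc ATPases and the Psmd non-ATPases, binds ubiquitinated proteins and unfolds them.

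All mice were C57BL/6J and carried the B16F10 melanoma cell line under the skin. The first library was blood of control (WT) mice and the second was tumor of control (WT) mice. The third was tumor labelled FoxP3 DTR, with treatment to remove regulatory T cells (Tregs). FoxP3 DTR mice express a diphtheria toxin receptor in FoxP3+ cells. The labels give neither the depleting agent, its timing, the ages nor the number of mice pooled, so allele, treatment, animal and library cannot be told apart. The sort took viable CD45+ cells with CD11b, CD11c or both, and left out cells positive for CD90, NK1.1, Ly6G, B220 or SigF. Tumors were digested with enzymes and blood was not, so tissue and handling cannot be told apart either. Each group is 1 library, so no difference has a replicate check, no test was possible, and every interval below is an exact 95% interval that covers counting error only.

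Short stretches upstream of 3 catalytic subunit genes are shown because they hold motifs tied to the 2 regulatory routes of the family, interferon for the inducible subunits and the transcription factor NFE2L1 for the constitutive ones. RefSeq promoter sequences (build GRCm38.p6, 250 bases before each annotated start) matched 38 of the 45 members, with 41 windows, and both strands were searched. Capitals mark the match, and each line reads 5′ to 3′ on the strand of its gene.
Psmb8, gamma-activated site, chr17:34198088-34198117 (+): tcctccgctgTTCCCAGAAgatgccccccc
Psmb5, antioxidant response element, chr14:54618023-54618052 (-): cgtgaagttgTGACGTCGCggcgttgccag
Psmb6, antioxidant response element, chr11:70525327-70525356 (+): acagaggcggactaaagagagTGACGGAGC
The gamma-activated site, TTCNNNGAA, is a motif of interferon-gamma responses, and Psmb8 was the 1 gene of the 5 inducible members (Psmb8, Psmb9, Psmb10, Psme1 and Psme2) whose window held it, against 7.02% of 32851 RefSeq promoter windows. That stretch of Psmb8 lies in exon 1 of a longer annotated transcript of the gene. The antioxidant response element, TGACNNNGC, is the kind bound by NFE2L1, and it was in the windows of Psmb5 and Psmb6, against 10.2% of all windows, and in none of the 5 inducible members. Psmb7 was not in the promoter table. The interferon-stimulated response element, GAAA followed by any 2 bases and GAAA again, was in 2.98% of all windows and in those of Psmb3, Psmd4 and Psmd9, and 3 further members had the antioxidant motif (Psmc6, Psmd12 and Psmd9). Each match is a match of letters and no more.

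In build GRCm38, Psmb8 (ENSMUSG00000024338) lies at chr17:34197721-34201454 on the plus strand, inside the MHC, and Psmb9 (ENSMUSG00000096727) lies at chr17:34181987-34187764 on the minus strand. Tap1, a subunit of the peptide transporter for class I loading, sits between them, 495 bases from Psmb8 and overlapping Psmb9 by 212 bases on the other strand. Psmb10 (ENSMUSG00000031897) lies at chr8:105935735-105938444. Psme1 at chr14:55578123-55581529 and Psme2 at chr14:55587441-55591113 are neighbours 5911 bases apart, facing each other's strand. Psmb5 lies at chr14:54614119-54618022, Psmb6 at chr11:70525367-70527858 and Psmb7 at chr2:38588036-38644087. The 3′ ends of some members share sequence with other loci, which can move reads between them. Of the 50-base words in the last 500 transcript bases, 66.8% of those of Psme2 occurred in another gene, as did 63.2% for Psmb3, 62.5% for Psma5, 56.8% for Psmd1, 56.3% for Psme2b and 54.5% for Psmb5, so their values are uncertain. For Psmb7, Psmb8, Psmb9 and Psmb10 no word was shared, and for Psmb6 4.43% were.

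Kept cells numbered 5550 for blood, 4443 for the control tumor and 4434 for the Treg-depleted tumor, with medians of 3550, 6452 and 3820 UMIs per cell and 19823533, 38680457 and 19392626 UMIs in all. Of 14427 kept cells, 193 had a barcode that occurred in more than 1 library. Cells were gated by marker lists, and no gate was passed by 22.6% of the blood cells, 34.9% of those from the control tumor and 67.5% of those from the Treg-depleted tumor. The sort did not leave out everything it named: control blood held 269 neutrophil-like, 181 NK cell-like and 105 B cell-like cells, and the Treg-depleted tumor held 183 neutrophil-like cells. T cell markers summed to 12.8, 5.92 and 0.722 counts per 1000000 UMIs (CPM) in blood, control tumor and Treg-depleted tumor, with Lck highest in blood at 9.38 CPM and Cd3e at 0 UMIs in all 3. Fibroblast markers summed to at most 0.517 CPM, and the 8 melanoma markers summed to 7.42 CPM in blood, with 28.6 CPM for the control and 66.5 CPM for the Treg-depleted tumor. Of these sums Mitf made up 7.36 CPM, 11.8 CPM and 17.4 CPM, and in blood 6 of the 8 markers had 0 UMIs. Foxp3 had 0, 1 and 0 UMIs, so these sorted cells cannot show the depletion, and 0 UMIs allow up to 0.151 CPM in blood. Macrophage-like cells numbered 24, 1501 and 354 in the same order, so the libraries differ in their mix of cells, and for every value over all kept cells a different mix and a different level per cell cannot be told apart.

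All 3 inducible catalytic subunits were abundant in blood already. Psmb8 was at 838 CPM in blood, and at 1117 CPM and 816 CPM in the control and Treg-depleted tumors. Psmb9 was at 270 CPM, 360 CPM and 365 CPM in the same order, and Psmb10 was at 286 CPM, 344 CPM and 352 CPM. Psmb8 was thus highest in the control tumor, while Psmb9 and Psmb10 were lowest in blood and alike in the tumors. Of the constitutive partners, Psmb5 was nearly level at 291 CPM, 282 CPM and 298 CPM. Psmb6 was at 291 CPM, 618 CPM and 559 CPM, and Psmb7 was at 158 CPM, 213 CPM and 188 CPM. The tumor libraries therefore stood well above blood for Psmb6 and less far above it for Psmb7. The PA28 subunit Psme1 was at 421 CPM, 558 CPM and 564 CPM, and its partner Psme2 was at 438 CPM, 857 CPM and 918 CPM. The reads come from the 3′ end, so levels of different genes are not set against each other as amounts of protein or as stoichiometry.

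**Figure D1:**
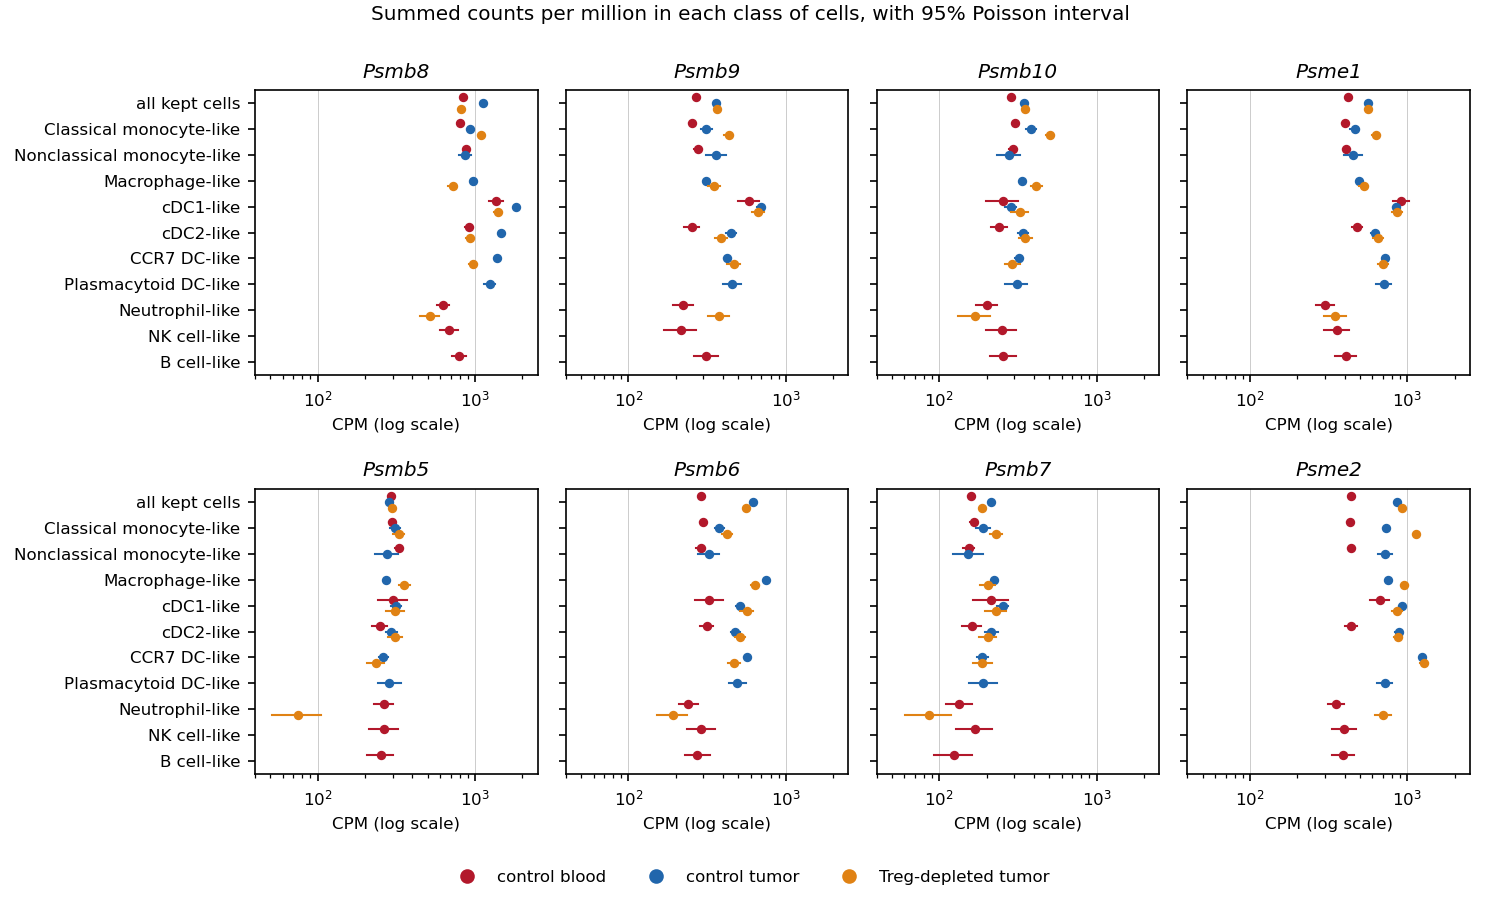
Level in CPM (log axis) of Psmb8, Psmb9, Psmb10, Psme1, Psme2, Psmb5, Psmb6 and Psmb7 in each library and gated type with at least 50 cells, with 1 point per class and exact 95% Poisson intervals as bars. Psmb8 reached 1819 CPM in cDC1-like cells of the control tumor, and its lowest class was the neutrophil-like cells from the Treg-depleted tumor at 515 CPM.

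The first comparison sets the control tumor against blood and asks how the proteasome of myeloid cells differs between tumor and circulation. A gene was counted as higher or lower when its CPM differed by at least 1.5-fold. Of the 44 members tested, 10 were higher in the control tumor, where 21.1% of the 11659 genes tested were higher, and 1 was lower, where 37.0% of all genes were lower. The median log2 ratio was 0.41 for the members and -0.29 for all genes, so the typical gene was lower in the tumor library on this scale. Relative to that median, 29 members were higher, against 28.5% of all genes, and 0 were lower, against 26.6% of all genes.

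The count of 10 of 44 members higher was near the 21.1% of all genes, so it does not set the members apart. Most of those past 1.5-fold were parts of the 19S cap. Among the 11 non-ATPases, 5 were higher, led by Psmd1, a scaffold subunit of the base, at 35.1 CPM in blood and 79.3 CPM in the control tumor, a ratio of 2.26 (2.08 to 2.46). Psmd7, the inactive partner of the deubiquitinase in the lid, was at 88.7 CPM and 187 CPM, a ratio of 2.11 (2.001 to 2.22). Psmd14, that deubiquitinase itself, was at 75.6 CPM and 126 CPM, a ratio of 1.67 (1.57 to 1.77). The lid subunits Psmd12 and Psmd11 followed at ratios of 1.65 and 1.53. The ATPases, which drive unfolding, had a median log2 ratio of 0.54 with 2 of 6 past the threshold, Psmc1 at 1.74 (1.62 to 1.87) and Psmc5 at 1.57 (1.49 to 1.66). All 6 lay above the median of all genes, as did all 11 non-ATPases.

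In the core, 1 catalytic subunit stood out. Psmb6 had a ratio of 2.12 (2.06 to 2.19), against 1.35 (1.29 to 1.40) for Psmb7 and 0.97 (0.94 to 1.003) for Psmb5. The inducible subunits lay between them, with 1.33 (1.31 to 1.36) for Psmb8, 1.33 (1.29 to 1.38) for Psmb9 and 1.201 (1.16 to 1.24) for Psmb10, so none of the 3 passed 1.5-fold. Psme2 had a ratio of 1.96 (1.91 to 2.003) and Psme1 one of 1.33 (1.29 to 1.36). None of the 7 alpha subunits, which form the outer rings and the gate of the core, passed the threshold, with a median of 0.33. Psma3 at 1.498 (1.46 to 1.54) and Psma5 at 1.49 (1.43 to 1.55) lay just below it and Psmd11 at 1.53 (1.45 to 1.61) just above it. Psmc3ip, the gene that is no subunit, had the highest ratio, 3.21 (2.04 to 5.30), from 22 UMIs in blood and 138 in the control tumor.

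At the other end, Psmd5, a chaperone of 19S base assembly, was at 24.6 CPM in blood and 16.2 CPM in the control tumor, a ratio of 0.66 (0.59 to 0.75). Psme4, the nuclear activator PA200, had a ratio of 0.70 (0.63 to 0.77), with 34.1 CPM and 23.8 CPM. The alpha subunit Psma7 was at 877 CPM and 661 CPM, a ratio of 0.75 (0.74 to 0.77), and Psmb1, a noncatalytic beta subunit, was at 551 CPM and 453 CPM, a ratio of 0.82 (0.80 to 0.84). Relative to the median of all genes, Psmb1 and Psmb5 were on the higher side, at log2 ratios of 0.01 and 0.25, while Psmd5, Psme4 and Psma7 kept their direction.

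**Figure D2:**
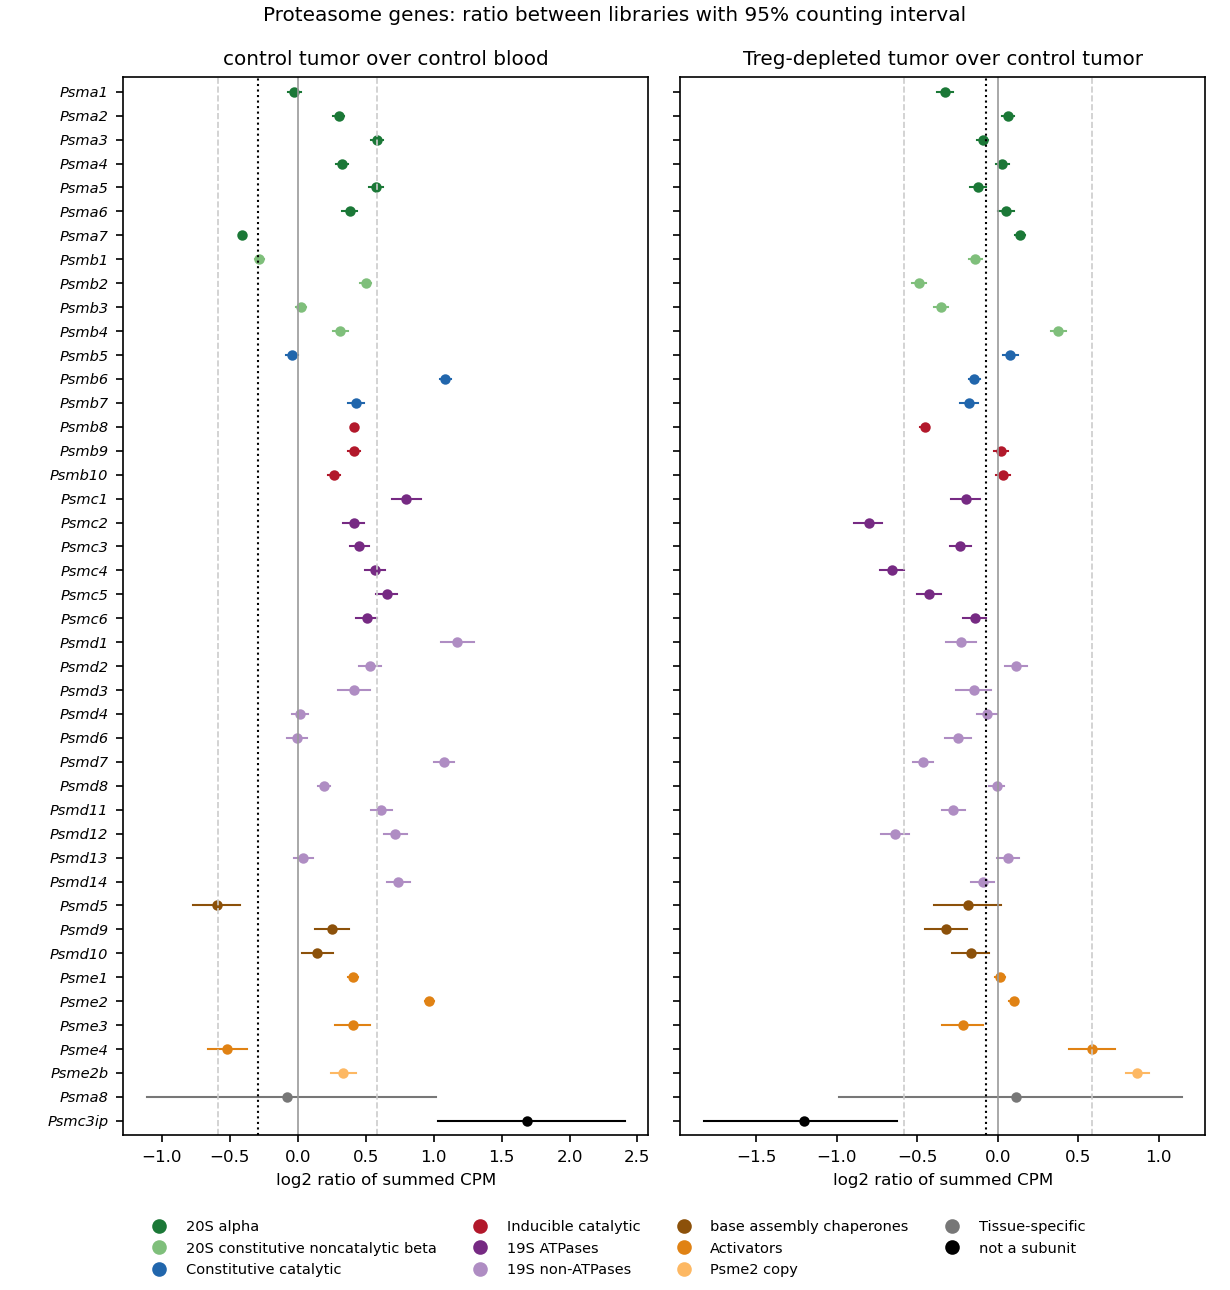
Log2 ratio of CPM for every member tested, ordered by role, for the control tumor over control blood and for the Treg-depleted tumor over the control tumor, with 95% counting intervals as bars, the median of all genes as a dotted line and 1.5-fold as dashed lines. In the tumor over blood panel, Psmd1, Psmb6, Psmd7 and Psme2 lie near or above a log2 ratio of 1, while in the other panel most members lie near 0 and Psme2b stands highest at 0.87.

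Within gated types the tumor to blood ratios varied, and Psme2 was on the higher side in all 4 types present in both libraries. In classical monocyte-like cells, 2034 in blood and 441 in the control tumor, 3 of 42 members were higher (Psmd1 at 1.52-fold, Psmd7 at 1.61-fold and Psme2 at 1.70-fold), against 15.1% of all genes. Psmd5 was the 1 member lower, at 0.58-fold, against 45.9% of all genes. The median log2 ratio was 0.16 for the members and -0.49 for all genes. Relative to that median, 23 of the 42 were higher, against 26.9% of all genes, and 0 were lower, against 27.9%. Psme2 was at 430 CPM in the blood cells and 732 CPM in the tumor cells of this class, and its log2 ratio was 0.71 in nonclassical monocyte-like, 0.46 in cDC1-like and 1.00 in cDC2-like cells. Psmb6 was at 296 CPM and 378 CPM in the classical class, with a log2 ratio of 0.35, less than the 1.09 over all kept cells.

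In cDC2-like cells, a conventional dendritic cell type that presents to helper T cells, many members were higher in the tumor. Of 42 members 17 were higher, against 20.2% of all genes, and 1 was lower, against 33.8%, with median log2 ratios of 0.53 for the members and -0.22 for all genes. Psmb8 was at 912 CPM in blood and 1474 CPM in the control tumor in these cells, a log2 ratio of 0.69. Psmb9 was at 252 CPM and 448 CPM, a log2 ratio of 0.83, which was 0.61 under a stricter gate. Psmb10 had a log2 ratio of 0.51, and the constitutive Psmb6, Psmb7 and Psmb5 had 0.60, 0.42 and 0.24. In nonclassical monocyte-like cells Psmb8 was instead about level, at 877 CPM in blood and 865 CPM in the tumor. Of 42 members there, 4 were higher, against 13.9% of all genes, and 2 were lower, against 46.2%. The cDC1-like cells, 51 in blood, did not share the high count of the cDC2-like cells. In them 6 of 42 members were higher, against 23.7% of all genes, and 0 were lower, against 26.6%.

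The second comparison sets the Treg-depleted tumor against the control tumor and asks what differed when regulatory T cells had been removed. Of 44 members, 2 were higher, where 17.1% of 11383 genes were higher, and 4 were lower, where 20% of all genes were lower. The median log2 ratio was -0.14 for the members and -0.07 for all genes. So the median of the members lay close to that of all genes. The ATPases lay on the lower side as a group.

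Psme2b was at 68.2 CPM in blood, and at 85.9 CPM and 157 CPM in the control and Treg-depleted tumors, a ratio of 1.82 (1.73 to 1.92) between the tumors. Psme2, with which it shares sequence, had a ratio of 1.07 (1.05 to 1.09), so the ratios of the pair differed. The Psme4 ratio was 1.502 (1.36 to 1.66), at 23.8 CPM and 35.7 CPM. Next came Psmb4, a noncatalytic beta subunit, at 238 CPM and 309 CPM, a ratio of 1.30 (1.26 to 1.34). Psma7 at 1.10 and Psmd2, another base scaffold, at 1.08 completed the 5 highest, and with each cell weighted equally Psma7 turned to the lower side, at a log2 ratio of -0.02.

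The lower members were the ATPases Psmc2 and Psmc4, the lid subunit Psmd12 and Psmc3ip. Psmc2 was at 124 CPM in control and 71.1 CPM in Treg-depleted tumor, a ratio of 0.57 (0.54 to 0.61), and Psmc4 was at 155 CPM and 98.6 CPM, a ratio of 0.63 (0.60 to 0.67). None of the 6 ATPases lay above the median of all genes, and their own median log2 ratio was -0.33. Psmd12 was at 116 CPM and 74.3 CPM, a ratio of 0.64 (0.61 to 0.68), and Psmc3ip had a ratio of 0.43 (0.28 to 0.65). Psmb2, a noncatalytic beta subunit, was at 456 CPM and 325 CPM, a ratio of 0.71 (0.69 to 0.73).

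The inducible subunits divided. Psmb8 had a ratio of 0.73 (0.72 to 0.74), whereas Psmb9 was at 1.02 (0.99 to 1.05) and Psmb10 at 1.02 (0.99 to 1.05). Psme1 had a ratio of 1.01 (0.99 to 1.03). Psmb5 at 1.06 (1.02 to 1.09), Psmb6 at 0.90 (0.88 to 0.93) and Psmb7 at 0.88 (0.85 to 0.92) all lay nearer to 1 than Psmb8 did.

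Of the gated types, only classical monocyte-like cells differed from the whole libraries in the direction of Psmb8. They were also the only such type without a lower depth in the Treg-depleted tumor, with medians of 4804 UMIs in the control and 5037 UMIs in the Treg-depleted tumor. Type and depth therefore cannot be told apart in this difference. In classical monocyte-like cells, 441 from the control and 393 from the Treg-depleted tumor, 4 of 42 members were higher (Psmb4 1.51-fold, Psme2 1.55-fold, Psma5 1.64-fold and Psme2b 2.61-fold), against 14.8% of all genes. None was lower, against 16.1% of all genes. Psme2 was at 732 CPM and 1133 CPM there, a log2 ratio of 0.63 (0.54 to 0.72). Psmb9 was at 313 CPM and 436 CPM, a log2 ratio of 0.48 (0.33 to 0.62), and Psmb10 was at 384 CPM and 508 CPM, a log2 ratio of 0.40 (0.27 to 0.54). Psmb8 was at 931 CPM and 1087 CPM, a log2 ratio of 0.22 (0.14 to 0.31). All 5 inducible members were on the higher side in this class, but so were the constitutive subunits, with 0.07 for Psmb5, 0.17 for Psmb6 and 0.27 for Psmb7, the last above Psmb8.

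In macrophage-like cells, 1501 from the control and 354 from the Treg-depleted tumor, Psmb8 was on the other side. It was at 976 CPM and 720 CPM, a log2 ratio of -0.44 (-0.53 to -0.35). Psmb9 at 313 CPM and 350 CPM and Psmb10 at 336 CPM and 414 CPM were on the higher side, with log2 ratios of 0.16 and 0.30, and Psme2 was at 758 CPM and 954 CPM, a log2 ratio of 0.33. The constitutive Psmb5, at 273 CPM and 357 CPM, had a log2 ratio of 0.39, above all of these, while Psmb6 had -0.23 and Psmb7 had -0.14. Of 43 members tested, 3 were higher (Psmb4 1.505-fold, Psme4 1.96-fold and Psme2b 2.01-fold), against 20.9% of all genes, and 4 were lower (Psmc3ip, Psmc2 0.48-fold, Psmd12 0.55-fold and Psmc4 0.56-fold), against 23.7% of all genes. The macrophage-like cells of the control tumor had a median of 9236 UMIs and those of the Treg-depleted tumor one of 4132.5, and 8.46% and 27.1% of them lay close to the edge of the gate. The part of depth and gate edge in these ratios was not tested.

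The dendritic types shared the lower Psmb8. It was at 1819 CPM and 1398 CPM in cDC1-like cells, 1474 CPM and 933 CPM in cDC2-like cells, and 1372 CPM and 974 CPM in CCR7 DC-like cells, the migratory kind. The log2 ratios were -0.38, -0.66 and -0.49. Without the 5% of cells with most UMIs in each library, the cDC1-like value was -1.41, and under a stricter gate the cDC2-like value was -0.43. The cells that passed no gate, the largest class of the Treg-depleted tumor with 2991 cells, had 1104 CPM and 725 CPM, a log2 ratio of -0.61 (-0.65 to -0.57). Depth was lower in the Treg-depleted tumor in all of these classes. Median UMIs in control and Treg-depleted tumor were 10768 and 5582 in cDC1-like and 8412 and 5115 in cDC2-like cells. They were 10019 and 6543 in CCR7 DC-like and 5556 and 3534 in ungated cells. The part of depth was not tested. Psme2b was on the higher side in each of the 5 types gated in both tumors, with log2 ratios from 0.58 in CCR7 DC-like cells, below 1.5-fold, to 1.38 in classical monocyte-like cells.

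**Figure D3:**
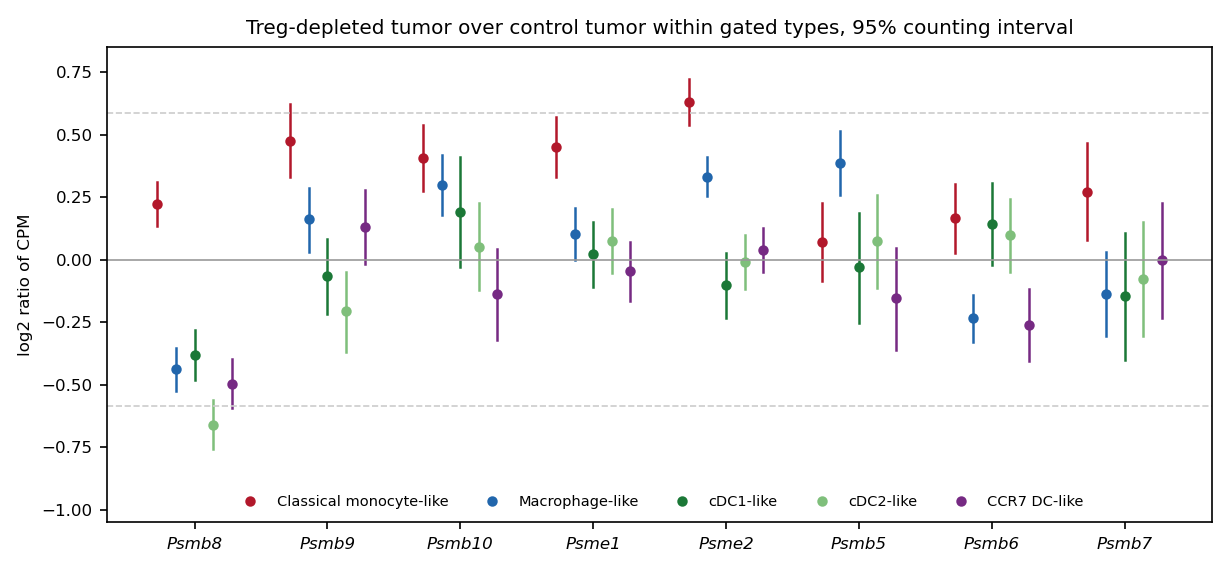
Log2 ratio of CPM, Treg-depleted tumor over control tumor, for the 5 inducible members and the 3 constitutive catalytic subunits in each gated type present in both tumors, with 95% counting intervals and 1.5-fold as dashed lines. Psmb8 lies above 0 in classical monocyte-like cells (0.22) and below 0 in macrophage-like cells (-0.44), cDC1-like (-0.38), cDC2-like (-0.66) and CCR7 DC-like cells (-0.49).

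The balance between inducible and constitutive catalytic subunits was expressed as the inducible share, the UMIs of Psmb8, Psmb9 and Psmb10 as a percent of all UMIs of Psmb5 to Psmb10, which needs no scaling between libraries. It was 65.3% (64.9 to 65.8) for blood, 62.1% (61.8 to 62.3) for the control tumor and 59.5% (59.0 to 59.9) for the Treg-depleted tumor. Blood was thus highest over all cells. With the classical monocyte-like, cDC1-like and cDC2-like classes weighted equally, the shares were 67.5%, 68.9% and 66.0%, so that the control tumor was highest under this weighting, which leaves out the other classes.

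Within each library the types differed more than the libraries did. In the control tumor the share was highest in cDC1-like cells, the dendritic type that cross-presents to cytotoxic T cells, at 72.2% (71.2 to 73.1). It was 69.7% in cDC2-like, 67.6% in CCR7 DC-like, 67.4% in plasmacytoid DC-like, 66.7% in nonclassical and 64.9% (63.7 to 66.2) in classical monocyte-like cells. The counting intervals of plasmacytoid DC-like and nonclassical monocyte-like cells overlapped each other. Both also overlapped those of cDC2-like, CCR7 DC-like and classical monocyte-like cells. Macrophage-like cells were lowest at 56.6% (56.2 to 57.1), below every other class of that library without overlap. In blood cDC1-like cells were again highest at 72.3% (69.3 to 75.2) and NK cell-like cells lowest at 61.3% (57.5 to 65.1), with classical monocyte-like cells at 64.2%. In the Treg-depleted tumor macrophage-like cells were again lowest at 55.4% (53.8 to 56.9), near the ungated cells at 56.2%, and neutrophil-like cells were highest at 75.0% (71.4 to 78.4).

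The pairs showed where the low share of macrophage-like cells lay. Psmb8 made up 78.2% of Psmb8 and Psmb5 together in macrophage-like cells of the control tumor, above the 74.9% of classical monocyte-like cells. Psmb9 made up 29.5% (28.8 to 30.2) of Psmb9 and Psmb6, against 45.3% (42.8 to 47.9) in classical monocyte-like and 57.6% (55.7 to 59.6) in cDC1-like cells. For Psmb10 with Psmb7 the values were 60.1% in macrophage-like, 66.9% in classical monocyte-like and 52.9% in cDC1-like cells. In the control tumor the Psmb9 pair therefore set the macrophage-like class apart. There Psmb9 was at 313 CPM in both macrophage-like and classical monocyte-like cells, whereas Psmb6 was at 749 CPM and 378 CPM. Psmb6 and Psmc3ip, at 1.98-fold and 1.75-fold, were the 2 of 43 members higher in macrophage-like than in classical monocyte-like cells of that tumor, against 32.5% of all genes, and 0 were lower, against 13.8%. The same log2 ratio of Psmb6 was 0.59 in the Treg-depleted tumor, where that of Psmb8 was -0.59. In that tumor the Psmb8 pair of macrophage-like cells was low as well, at 66.9% against 76.8% in classical monocyte-like cells. The Psmb9 pair was at 35.5% against 50.7%, and the Psmb10 pair at 67.0% against 68.9%.

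**Figure D4:**
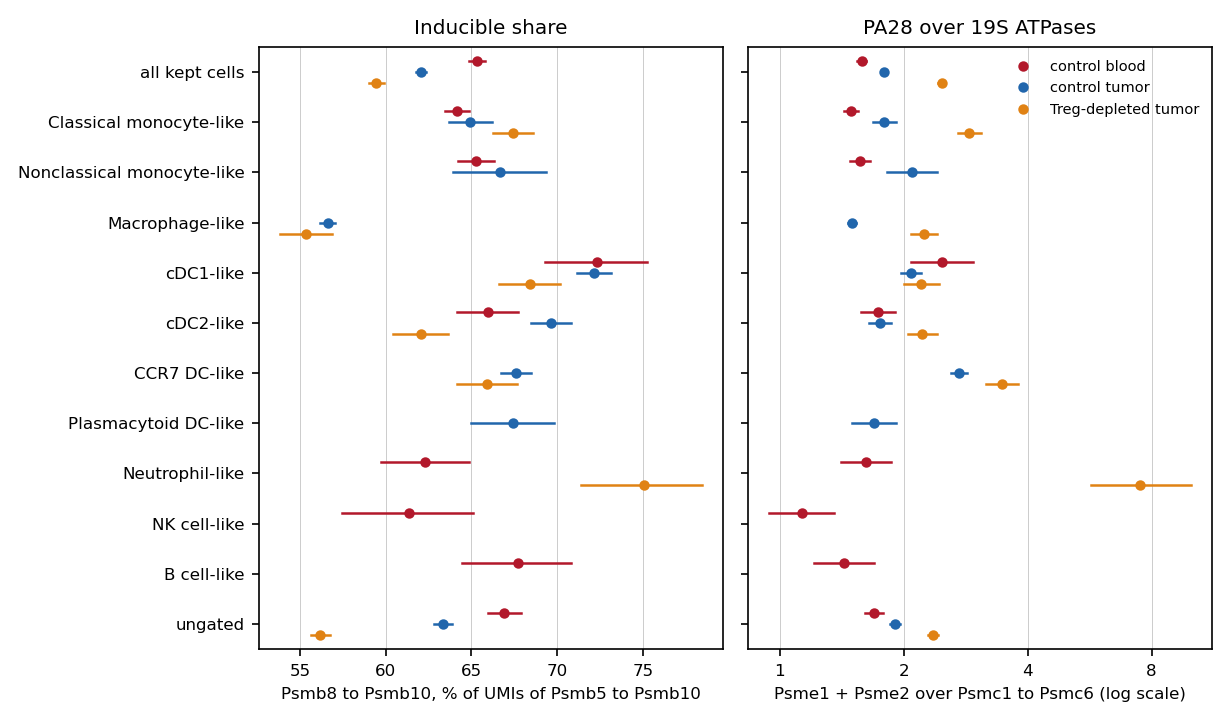
Inducible share in percent (left; Psmb8, Psmb9 and Psmb10 as a part of Psmb5 to Psmb10) and ratio of PA28 to ATPase UMIs (right, log axis) in each library, gated type with at least 50 cells and the ungated cells, with exact 95% intervals. In both tumors macrophage-like cells lie lowest, at 56.6% and 55.4%, and cDC1-like cells lie at 72.2% and 68.4%.

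Over the caps, the ratio of PA28 UMIs (Psme1 and Psme2) to those of the 6 ATPases was 1.58 (1.55 to 1.62) for blood, 1.79 (1.76 to 1.81) for the control tumor and 2.47 (2.42 to 2.52) for the Treg-depleted tumor. The higher value of the Treg-depleted tumor went with PA28 at 1481 CPM against 1415 CPM and with ATPases at 600 CPM against 792 CPM. It held in classical monocyte-like cells at 2.89 against 1.79, in macrophage-like cells at 2.24 against 1.499 and in CCR7 DC-like cells at 3.46 against 2.72. In cDC1-like cells the values were 2.21 (2.002 to 2.44) and 2.08 (1.97 to 2.21), with overlapping intervals.

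Neutrophil-like cells had the fewest proteasome transcripts. All members summed to 4998 CPM in those of the Treg-depleted tumor, against 12096 CPM in its classical monocyte-like cells. Of 42 members 0 were higher than in classical monocyte-like cells, against 14.4% of all genes, and 40 were lower, against 56.6% of all genes, with medians of -1.39 for the members and -0.77 for all genes. Relative to that median 23 were lower, against 29.8% of all genes. The exceptions were Psmb9, at 375 CPM and 436 CPM, and Psme2b, at 144 CPM and 200.3 CPM. Psmb5 was at 74.6 CPM and 327 CPM, and the PA28 to ATPase ratio reached 7.48 (5.71 to 9.97). These cells had a median of 1848 UMIs, and their share of 75.0% was 77.2% after subtraction of free RNA. In blood, neutrophil-like cells stood at 6828 CPM for all members and had a share of 62.3% (59.7 to 64.8), without overlap with those of the Treg-depleted tumor. The genes ranked highest for the class began with Ngp, Camp and S100a9 in blood and with S100a9, Retnlg and S100a8 in that tumor. Kind of neutrophil, tissue and treatment therefore cannot be told apart in this contrast.

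Cells were next ranked by a list of 20 interferon-induced genes that holds no proteasome member, after thinning each cell to 1000 UMIs, and each library was split into 5 equal parts. The inducible share went from 61.7% (59.6 to 63.8) in the lowest part to 69.6% (67.9 to 71.4) in the highest part in blood, and from 56.9% (54.8 to 58.9) to 67.4% (65.5 to 69.3) in the control tumor. In the Treg-depleted tumor the 4 lower parts lay between 55.4% and 56.8%, and only the highest part stood apart at 67.1% (65.0 to 69.1). The parts are ranges of a score and not cell types, and in blood the lowest and the next part hold only cells with no UMI of the list. In the control tumor the median UMIs per cell were 7450 in the lowest part and 5120.5 in the highest, and their role was not tested.

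Of the 8 catalytic and PA28 subunits, Psmb9 differed most between the lowest and highest parts in each library, except that without thinning Psmb10 was 1.74-fold and Psmb9 1.72-fold higher in the control tumor, and both were 1.55-fold higher in blood. From the lowest to the highest part it went from 223 CPM to 341 CPM in blood, from 244 CPM to 384 CPM in control tumor and from 280 CPM to 481 CPM in Treg-depleted tumor. Within macrophage-like cells of the control tumor it went from 196 CPM to 460 CPM, 2.35-fold, and the share went from 53.2% to 65.3%. Psmb8 was 1.39-fold, 1.22-fold and 1.21-fold higher in the highest part of blood, control tumor and Treg-depleted tumor, and Psme2 was 1.38-fold, 1.43-fold and 1.23-fold higher. Psmb10 was 1.23-fold, 1.32-fold and 1.03-fold in the same order, and Psme1 was 1.15-fold, 1.29-fold and 0.97-fold. After thinning, both were thus about level in the Treg-depleted tumor. Without thinning, Psmb10 was 1.22-fold and Psme1 1.10-fold in the Treg-depleted tumor. Within its classical monocyte-like cells Psmb10 was 0.87-fold, Psme2 0.98-fold and Psme1 1.06-fold, against 2.03-fold for Psmb9 and 1.26-fold for Psmb8. Psmb6, the constitutive partner of Psmb9, was 0.94-fold, 0.79-fold and 0.81-fold in blood, control tumor and Treg-depleted tumor. In blood its intervals overlapped, at 278 to 344 CPM in the lowest and 259 to 324 CPM in the highest part. Within macrophage-like cells of the control tumor Psmb6 was 0.95-fold. Within classical monocyte-like cells it was 0.85-fold in blood and 1.04-fold in the Treg-depleted tumor. Without thinning, these values were 0.85-fold, 0.94-fold and 0.68-fold in the same order. The thinned value of the Treg-depleted tumor rests on parts of 79 and 78 cells. Its intervals overlapped, at 288 to 587 CPM in the lowest and 302 to 609 CPM in the highest part. Within classical monocyte-like cells the share went from 58.5% to 70.5% in blood. In the same class of the Treg-depleted tumor it was 60.3% in the lowest and 71.4% in the highest part, while the next to highest part had 72.9%.

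**Figure D5:**
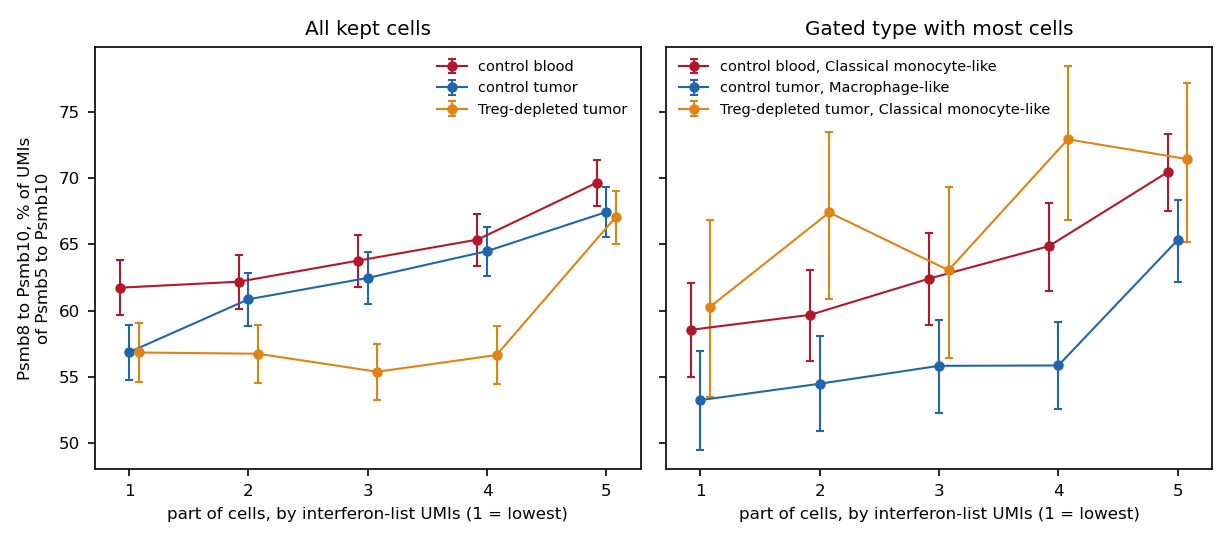
Inducible share in percent (exact 95% binomial intervals) over the 5 parts of each library ranked by interferon-induced genes, cells thinned to 1000 UMIs, for all kept cells (left) and for the gated type with most cells (right). Among all kept cells the highest part lies at 69.6% for blood, 67.4% for the control tumor and 67.1% for the Treg-depleted tumor, above the lowest part in each.

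Across the 20 classes of library and gated type, members varied to different degrees. Psmd8, a lid subunit, had the smallest SD of log2(CPM + 10) among the members detected in every class, between 179 CPM and 325 CPM, a 1.81-fold range. Psmd7 had the largest, 0.66, between 23.3 CPM and 207 CPM, while Psmd5, from 2.33 CPM to 38.6 CPM, had the largest ratio of highest to lowest class, resting on 1 UMI in the lowest. Psmd7 had its lowest value, like those of most members, in neutrophil-like cells from the Treg-depleted tumor. Psmb8 ranged from 515 CPM to 1819 CPM and Psme2 from 351 CPM in blood neutrophil-like cells to 1278 CPM in CCR7 DC-like cells of the Treg-depleted tumor. These classes share libraries and depth, so the likeness of genes over them is a description. Genes like each inducible member were sought by Pearson r of log2(CPM + 10) over the 20 classes, among the 236 genes with at least 100 UMIs in every class. That minimum leaves out Psmb5, Psmb6, Psmb7, Psmb9 and Psmb10 as candidates, so their r is given apart. Among the 236 genes, those most like Psmb8 were Psme1 (0.87), Eif5a (0.77) and H2-Ab1 (0.77). Most like Psmb9 were Psme1 (0.89), Psmb8 (0.76) and Rbm3 (0.75), and most like Psme1 were Psmb8 (0.87), Rbm3 (0.73) and Hsp90ab1 (0.73). Of the members below that minimum, Psmb7 had r of 0.78 with Psmb8 and 0.75 with Psme1, and Psmb9 had 0.89 with Psme1. Nearest to Psmb10 were Cox6b1 (0.78), Ctsc (0.78) and Sec61g (0.74). Its r was 0.74 with Psmb7, 0.71 with Psmb6, 0.69 with Psmb5, 0.56 with Psme2, 0.44 with Psme1, 0.42 with Psmb8 and 0.25 with Psmb9. Psme2 was nearest to Slc25a3 (0.89), Ldha (0.84) and Prdx1 (0.82).

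Genes around the proteasome were read from 3 lists. For class I peptide loading, 4 of 12 genes were higher in the control tumor than in blood, where 21.1% of all genes were, and 0 were lower, where 37.0% of all genes were, with a median log2 ratio of 0.54 against -0.29. They were Tap1 (2.02-fold) and Tap2 (1.76-fold), the peptide transporter, and the folding helpers Calr (2.35-fold) and Pdia3 (1.57-fold). Between the tumors 1 of the 12 was higher and 2 were lower, against 17.1% and 20% of all genes. Nlrc5, the activator of class I genes, was higher in the Treg-depleted tumor at 1.90-fold, and the class I heavy chain H2-D1 (0.66-fold) and Pdia3 (0.65-fold) were lower. In the ubiquitin list, Sqstm1, the receptor that hands ubiquitinated cargo to autophagy, was at 57.5 CPM in blood and 515 CPM in the control tumor. Among 14 assembly and regulator genes, the share higher in the control tumor than in blood was near that of all genes. Of the 14, 3 were higher (Nfe2l1 1.71-fold, Txnl1 1.70-fold and Usp14 1.5-fold) and 2 were lower (Ddi2 0.34-fold and the assembly chaperone Psmg3 0.62-fold). Between the tumors, where 17.1% of all genes were higher and 20% lower, Nfe2l1 (1.56-fold) and Shfm1, a small lid subunit (1.72-fold), were higher, and Psmg2, Uchl5 and Usp14 were lower at 0.62-fold, 0.64-fold and 0.66-fold. Between the tumors the median log2 ratio was 0.04 for class I loading and -0.16 for assembly and regulators, beside the -0.07 of all genes.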

How the data were processed

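The authors deposited unnormalised UMI counts per gene and barcode for 3 libraries made with the 10x 3′ v2 kit. Reads were processed with Cell Ranger 1.2 against mm10, per the submitters' processing notes. Kept barcodes had 1000 or more UMIs, 400 or more genes, and no more than 10% of UMIs from mitochondrial genes. No doublet caller was run, and leaving out the 5% of barcodes with most UMIs was an alternative. Each cell was gated to the marker list with the highest mean scaled level, if at least 3 of its markers were detected and it led the next list by 0.2, a rule set after the data were seen. Counts were summed per library and class and divided by the total (CPM), with exact Poisson, conditional binomial and Clopper-Pearson intervals at 95% in Python 3.11.15 with scipy 1.17.1, numpy 2.4.6 and pandas 2.3.3. Ratios used genes with at least 20 UMIs in either library. The interval code was tested on simulated data. Besides the 8 inducible and constitutive genes, members were named by the 5 highest and 5 lowest ratios with at least 100 UMIs, list genes by 1.5-fold, and like genes by the 3 highest r. Members and lists were chosen with earlier results of these data known. Psmd11 and Psmd14, and the members past 1.5-fold or near it, were added after their values were seen. Alternatives changed the UMI minimum, mitochondrial limit, cell weighting, scaling, free RNA, doublets, shared barcodes, gene minimum, fold, gate, and number of parts and thinning for the interferon ranking. Counts over the ubiquitin list are not reported here.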

Additional observations from a re-analysis of the deposited data

Results flagged for a closer look

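Differences between cell types in the ratio of the Treg-depleted tumor to the control tumor are listed where the counting intervals lay on opposite sides of 0 and at least 1 of the ratios passed 1.5-fold. None of these differences was tested, since each group is 1 library. Median UMIs per cell were alike between the tumors in classical monocyte-like cells but lower in the Treg-depleted tumor in cDC2-like and CCR7 DC-like cells. Cell type and depth therefore cannot be told apart here. For Psmb8 the log2 ratio was 0.22 in classical monocyte-like and -0.66 in cDC2-like cells, a difference of 0.88. For Psmb2, a noncatalytic beta subunit, it was 0.20 in classical monocyte-like and -0.76 in CCR7 DC-like cells, a difference of 0.97, with 401 CPM and 462 CPM in the former and 442 CPM and 261 CPM in the latter. For Psma5, an alpha subunit, it was 0.72 in classical monocyte-like and -0.20 in CCR7 DC-like cells, a difference of 0.92.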

How the results depend on the processing

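No result changed to the other direction past its threshold. For the control tumor against blood, scaling by the median gene ratio gave 29 members higher and 0 lower with a median of 0.70, a 2-fold threshold gave 4 and 0 (15% and 22.8% of all genes), and subtraction of free RNA gave 0 lower. For the Treg-depleted against the control tumor, 1 member was higher at a mitochondrial limit of 5% and 1 without shared barcodes, and at 2-fold 0 were higher and 1 was lower (7.63% and 8.63% of all genes). Without the 5% of barcodes with most UMIs and with cells weighted equally, the inducible share was 62.5% and 62.9% for the control tumor and 58.7% and 58.6% for the Treg-depleted tumor, and the PA28 to ATPase ratio of the control tumor was 1.75 and 1.83. Between the lowest and highest interferon parts the share differed by 10.6 points for the control tumor and 10.2 for the Treg-depleted tumor, against 7.80 and 7.79 with 3 parts, and 14.95 in the control tumor without thinning. The causes were not tested. Of the main values under alternatives 19 moved and 75 did not, and of those of single genes and types 98 moved and 891 did not. With 1 library per group no spread between animals can be given, and classes under 100 cells rest on small counts. No paired analysis was possible because each group is 1 library and the labels give no replicate numbers.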
